A study of Mus musculus with 12 samples.

Results

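The average effect of 17β-estradiol over both sorted cell fractions of mouse bone marrow cultures was measured on all 12 arrays of the series, 6 from estradiol cultures against 6 from control cultures. Whole bone marrow of female C57BL/6 mice aged 6 weeks was cultured for 1 week with 17β-estradiol at 1 nM, which the labels call physiological, or without it. From these cultures came cells that the labels call c-kit+ stem cells and cells that they call CD44+ stromal cells. Both fractions were sampled from both kinds of culture, with 3 arrays for every combination, numbered as replicates 1 to 3. Cell fraction and replicate number entered the model as additive factors, so each gene received 1 estradiol effect with 6 arrays a side. The labels do not say that replicates came from separate animals or cultures, so the p-values measure the spread among these RNA samples, which may be technical. In such bulk samples, fewer cells of a type and less RNA per cell cannot be told apart.

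Estradiol acts through the nuclear receptors ERα (Esr1) and ERβ (Esr2), which bind DNA directly or act through other transcription factors. NF-κB is a family of dimeric factors held in the cytoplasm by inhibitor proteins. In macrophages, a major blood cell type of marrow cultures, its release switches on cytokines, chemokines and surface molecules, together with inhibitors that end the response. KRAB zinc finger genes form a large family of DNA-binding repressors that lie in clusters in the mouse genome.

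The labelled cell types were set against their defining markers. Kit, the receptor that gives the c-kit+ fraction its name, had a mean log2 level of 3.97 in c-kit+ control and 4.01 in CD44+ control arrays. That is at the level of Y-linked genes in these female cells, whose median was 3.98 over 9 genes with a range from 3.22 to 6.22. Cd44 lay at 11.93 and 12.12 in the same groups, and the leukocyte gene Ptprc between 12.71 and 13.56 on all 12 arrays. The mean level of 13 macrophage and monocyte markers lay between 10.48 and 10.83 on every array, that of 12 stem and progenitor markers between 6.02 and 6.58. Levels of different probe sets are only roughly comparable. The fractions are therefore called by their sort labels here. Of the 13 macrophage markers, 0 passed the pooled limma test and 1 had an unadjusted p below 0.05, with a median log2 difference of 0.04.

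The promoter sequences shown first belong to genes that carry the result: 4 of the inflammatory genes that rose with estradiol, among them Il12b and Il6, and the zinc finger gene with the largest fall. Each window holds the 250 bases before the gene's start in RefSeq (mouse build GRCm38.p6), written 5′ to 3′ on the gene's own strand. Capitals mark matches to the NF-κB consensus, a 10-base motif searched on both strands.
Il12b (chr11:44399813-44400062, plus strand): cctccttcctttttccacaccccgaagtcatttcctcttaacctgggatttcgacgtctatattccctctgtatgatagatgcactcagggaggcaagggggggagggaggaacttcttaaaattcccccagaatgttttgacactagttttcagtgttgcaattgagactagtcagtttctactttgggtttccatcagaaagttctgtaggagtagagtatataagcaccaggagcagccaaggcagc
Il6 (chr5:30012864-30013113, plus strand): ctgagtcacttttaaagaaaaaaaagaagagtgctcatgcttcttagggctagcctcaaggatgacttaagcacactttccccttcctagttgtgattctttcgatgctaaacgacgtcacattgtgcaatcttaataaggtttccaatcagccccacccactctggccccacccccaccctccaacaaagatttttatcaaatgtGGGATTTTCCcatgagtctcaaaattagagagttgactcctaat
Cxcl10 (chr5:92348890-92349139, minus strand): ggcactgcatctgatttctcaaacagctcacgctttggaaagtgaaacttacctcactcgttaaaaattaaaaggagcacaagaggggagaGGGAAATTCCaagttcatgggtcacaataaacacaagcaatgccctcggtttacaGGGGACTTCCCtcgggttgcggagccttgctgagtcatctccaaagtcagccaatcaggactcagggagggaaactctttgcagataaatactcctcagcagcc
Nfkbie (chr17:45555450-45555699, plus strand): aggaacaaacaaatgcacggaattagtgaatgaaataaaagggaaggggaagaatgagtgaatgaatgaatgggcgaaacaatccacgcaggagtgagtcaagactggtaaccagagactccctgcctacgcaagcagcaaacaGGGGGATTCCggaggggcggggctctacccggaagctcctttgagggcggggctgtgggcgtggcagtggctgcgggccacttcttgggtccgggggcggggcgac
Zfp472 (chr17:32965581-32965830, plus strand): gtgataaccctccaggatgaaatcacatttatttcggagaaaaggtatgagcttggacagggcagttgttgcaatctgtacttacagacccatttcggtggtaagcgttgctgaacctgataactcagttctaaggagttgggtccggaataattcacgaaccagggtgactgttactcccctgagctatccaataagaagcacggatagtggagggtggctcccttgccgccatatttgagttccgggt
The Il12b window, of the gene with the largest rise, holds 0 matches. That of Il6 holds 1, which begins 44 bases before the start. Cxcl10 has 3, beginning 159, 104 and 103 bases before it, of which the last 2 overlap. Nfkbie has 1, at 106 bases, and the Zfp472 window has 0. Among genes higher with estradiol, 59 of 271 windows (21.8%) held a match, beside 1541 of 18009 windows (8.56%) of all genes and 2 of 26 (7.69%) of genes lower with estradiol. A window was listed for 209 of the 253 higher genes. Several windows can belong to 1 gene: counted by gene, 51 of 209 higher genes (24.4%) and 10.1% of all genes with a window had a match. Of the NF-κB genes that rose, 6 of 10 with a window had one (11 of 16 windows), and of the inflammatory cytokines that rose, 3 of 8. The estrogen response element palindrome was in 0 of 271 windows of higher genes and in 4 of 18009 (0.0222%) of all. The AP-1 motif TGANTCA was in 7.38% of windows of higher genes and 5.6% of all. The interferon-stimulated response element core was in 4.06% and 2.62%. Such matches are letters in a window and not measured binding.

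At an adjusted p below 0.05 in limma (Benjamini-Hochberg over 18193 genes, each measured by its probe set of highest mean), 289 genes passed (1.59% of those tested). Of these, 253 were higher with estradiol (1.39% of all genes) and 36 were lower (0.198%). On the probe sets used, the cytokine genes Il12b and Il6 had the largest rises, and 16 of the 36 falls were zinc finger genes by symbol. The median rise was 0.65 on the log2 scale and 29 genes rose at least 2-fold. The median fall was 0.48 in size and 0 genes fell 2-fold, with 12 at 1.5-fold or more beside 146 rises. In all 6 array pairs of equal fraction and replicate number, estradiol was higher for 245 of the 253 (4.4% of all genes) and lower for 30 of the 36 (1.82% of all). The treatments did not overlap for 128 of the rises (0.868% of all genes were as separate and higher) and for 13 of the falls (0.132% lower).

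These counts depended on single arrays. Without c-kit+ control replicate 3, whose values deviated most from its group (SD of the deviations 0.266, against 0.123 to 0.188 on the others), 594 genes were higher and 190 lower. Those included all 253 and all 36. Without CD44+ control replicate 2, 166 were higher and 23 lower. Without the replicate number in the model, 177 were higher and 21 lower. Among the named genes that were followed through the refits, that fit lost the calls of Slc7a11, Slc39a4, Lcn2, Vcam1, Sgk1, Ccl5, Ccl2, Fosb, Egr1, Ptges, Btg2, Mdm2, Zfp748, Zfp39, Zfp142, Zfp799, Thap2, Lcmt2, Nanp, Thbd, Etaa1, Fancf and Haspin. Of the 253 rises, 154 passed in each of the 12 fits that left out 1 array, and so did 18 of the 36 falls.

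**Figure D1:**
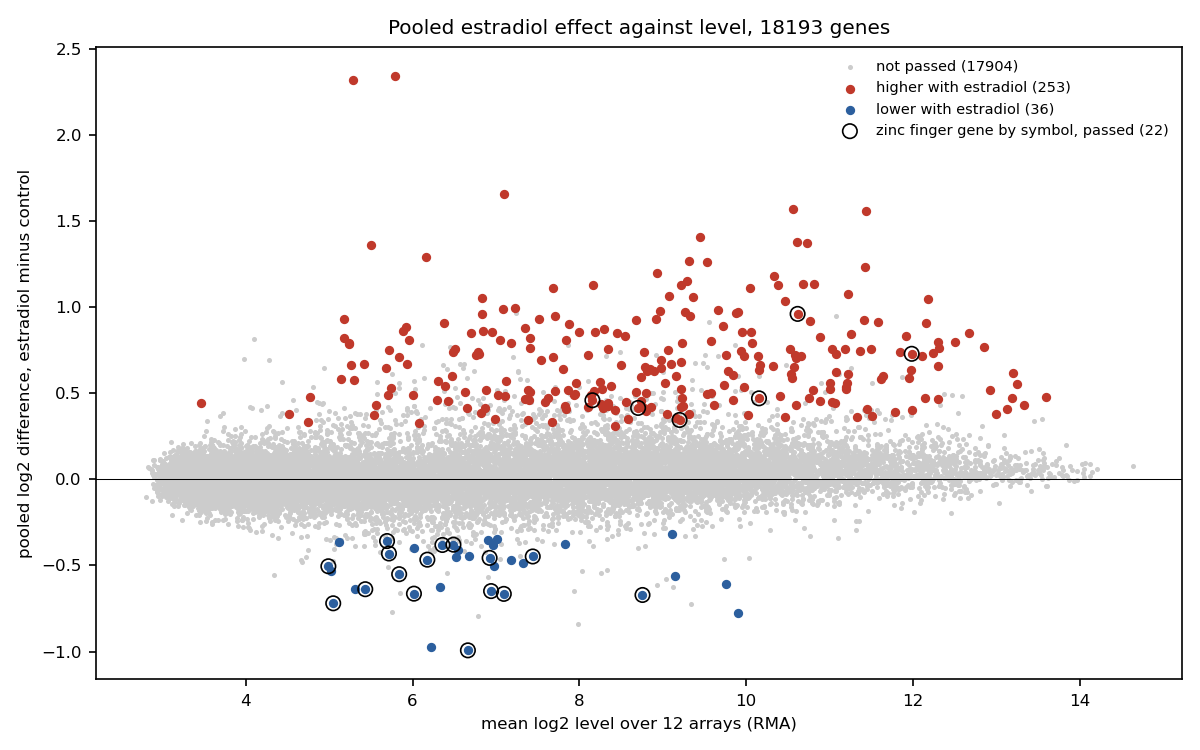
Pooled log2 difference, estradiol minus control (vertical axis), against the mean log2 level over 12 arrays (horizontal axis) for 18193 genes. Genes that passed are in colour, and zinc finger genes by symbol that passed are ringed. Rises reach 2.34 and falls reach -0.99; 16 of the 36 blue points are ringed.

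Among the secreted signals, Il12b encodes the p40 subunit shared by interleukins 12 and 23. It lay at 4.05, 4.55 and 5.27 (lowest, median and highest log2 level) on the 6 control arrays and at 6.33, 6.80 and 7.73 on the 6 estradiol arrays. The groups did not overlap, and the difference of 2.34 ± 0.09 (SE of the limma fit) is 5.07-fold, with an adjusted p of 9.52e-08. A second, dimmer Il12b probe set differed by 0.64 ± 0.17 (adjusted p = 0.12 over every probe set), and the mean of both rose by 1.49 and passed. Il6, the fever and acute-phase cytokine, lay at 3.61, 4.14 and 4.83 without and 5.89, 6.47 and 6.94 with estradiol. It too was higher on every estradiol array, by 2.32 ± 0.21. The interleukin 1 genes Il1b and Il1a rose 2.35-fold and 2.09-fold. In the list of inflammatory cytokines, 12 of 22 measured genes rose and 0 fell, with a median log2 difference of 0.57 beside 0.01 over all genes tested. Among them were Tnfsf9 (1.07), the inhibitory cytokine Il10 (1.05), Il23a (0.82), which pairs with Il12b, Lif (0.79) and Csf2 (0.75). Il12a, the partner of Il12b in interleukin 12, had a difference of -0.03 (adjusted p = 0.95), and the antagonist Il1rn one of 0.91 ± 0.25 (adjusted p = 0.13). Restricted to genes at or above the median level, 7 cytokines rose, since fewer of them were tested.

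Tnf, an early cytokine of the inflammatory response, passed only when the fractions were pooled. It measured 11.64, 11.95 and 12.29 on control arrays and 12.44, 12.64 and 12.75 on estradiol arrays, without overlap. Its pooled difference was 0.66 ± 0.09 (adjusted p = 0.0019). In c-kit+ cells alone the difference was 0.64 (adjusted p = 0.10) and in CD44+ cells 0.68 (adjusted p = 0.055). The estimates were near each other, and the pooled fit had the smaller error.

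Among 28 measured chemokines, 7 rose and 0 fell, and the median difference was 0.16. Cxcl10, which draws T cells, lay at 9.42, 9.83 and 10.02 in control and at 11.06, 11.31 and 11.60 in estradiol cultures. Its rise of 1.57 ± 0.11 (2.96-fold) had an adjusted p of 1.63e-05, and no arrays overlapped. The neutrophil attractants Cxcl3 (1.13 ± 0.09) and Cxcl1 (0.48 ± 0.07) rose, while Cxcl2 differed by 0.20 and did not pass (adjusted p = 0.43). Of the CC chemokines, Ccl5 (0.84), Ccl4 (0.73), Ccl3 (0.64) and the monocyte attractant Ccl2 (0.42) rose. The calls of Ccl2 and Ccl4 were lost in 9 and 6 of the 12 fits that left out 1 array, with adjusted p up to 0.121 and 0.102, and quantile normalization left 4 chemokines.

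**Figure D2:**
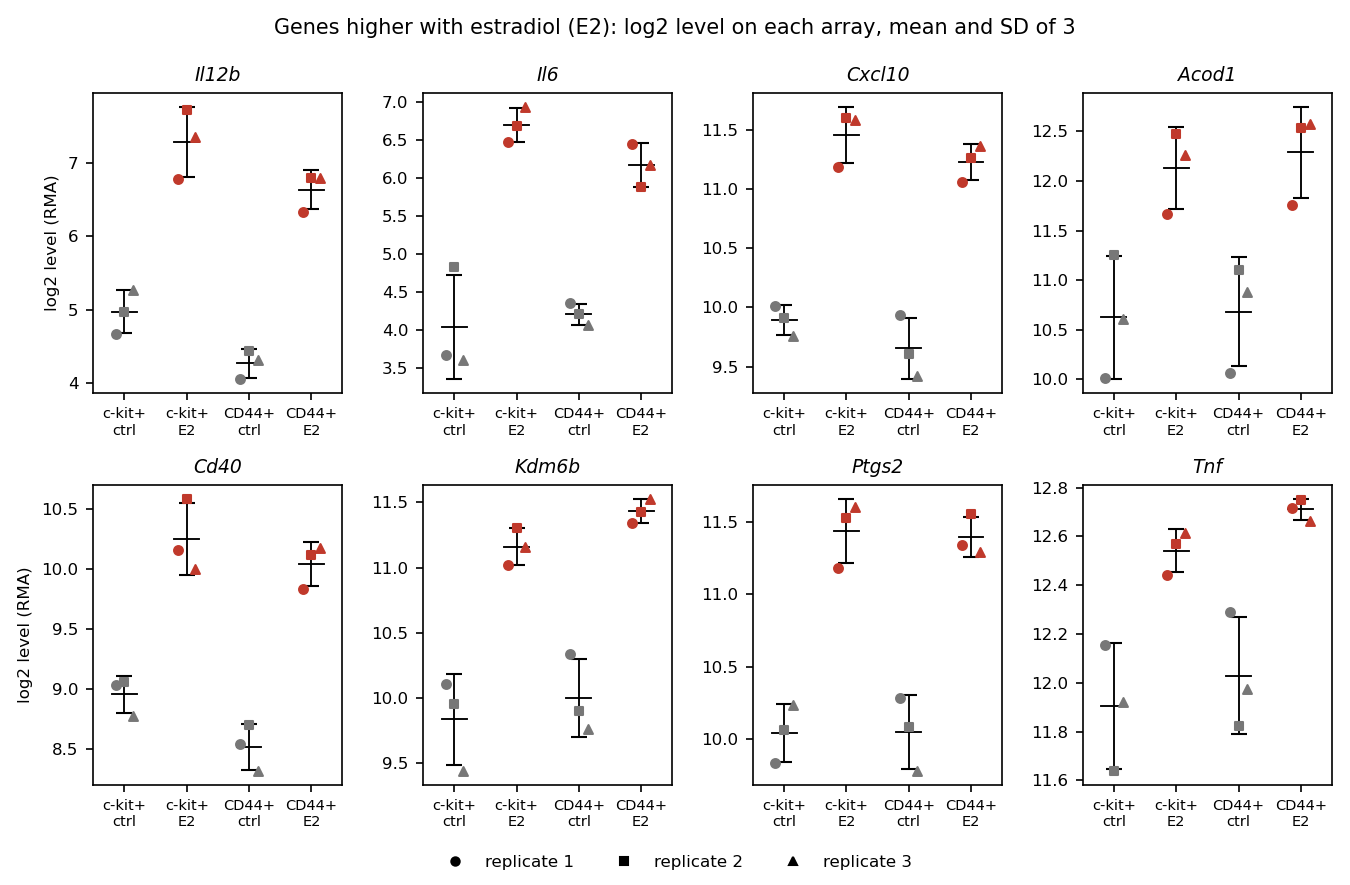
Log2 level on each of 12 arrays for 8 genes higher with estradiol, by fraction and treatment (grey control, red estradiol), with symbols for the replicate number and bars for the mean and SD of 3 arrays. In each panel every estradiol array lies above every control array, from a 5.07-fold difference for Il12b to 1.58-fold for Tnf.

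Of 24 measured NF-κB subunits and regulators, 13 rose, 0 fell and 11 did not pass, with a median of 0.50, and no fit that left out an array brought the count under 10. Nfkbie, which encodes the inhibitor IκBε, had levels of 9.62, 9.75 and 9.86 without estradiol and of 10.79, 10.88 and 11.07 with it. These groups stood clearly apart, by 1.18 ± 0.07 (adjusted p = 1.14e-05). Malt1, the protease of the signalling complex upstream of NF-κB, lay at 8.26, 8.94 and 9.71 and at 10.01, 10.13 and 10.31, a rise of 1.26 ± 0.17 without overlap. The subunit genes Rel (0.88 ± 0.08), Relb (0.81 ± 0.14) and Nfkb2 (0.57 ± 0.08) rose. Rela, the remaining transactivating subunit, had a difference of 0.38 ± 0.09 and did not pass (adjusted p = 0.068). The adaptor Traf1 rose by 0.95, the ubiquitin-binding inhibitor Tnip1 by 0.71, the coregulator Bcl3 by 0.64 and the ubiquitin-editing inhibitor Tnfaip3 by 0.62. Nfkbia, the gene of the classical inhibitor IκBα, differed by 0.12 ± 0.06 (adjusted p = 0.57). Nfkbiz (0.52) lost its call in 8 of the 12 fits that left out 1 array, with adjusted p up to 0.102. Its dimmer probe sets differed by 1.055 (adjusted p = 0.00054 by limma over every probe set) and by 0.475 (adjusted p = 0.195).

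Of 19 Toll-like receptors, coreceptors and adaptors, Tlr2 (0.72 ± 0.08), the sensor of bacterial lipoproteins, and Cd14 (0.43 ± 0.07), the lipopolysaccharide coreceptor, rose. Tlr4 had a difference of -0.14 (adjusted p = 0.62). Without c-kit+ control replicate 3 the count was 4.

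Of 24 measured feedback inhibitors of signalling, 9 rose, 0 fell and 15 did not pass, with a median of 0.38. The count of rises was 6 to 11 in the fits that left out 1 array. With quantile normalization, with array weights or without replicate 3 of either control group, 1 member passed as lower. Zc3h12c, of the family of RNases that cut cytokine messages, rose by 1.06 ± 0.10 and Socs3, which blocks cytokine receptor signalling, by 0.76 ± 0.07. The MAP kinase phosphatases Dusp2 (1.04) and Dusp4 (0.97) rose, while Dusp6, of the same family, had a difference of -0.63 ± 0.16 and did not pass (adjusted p = 0.10). Gadd45b rose by 0.92. Zfp36, which marks Tnf messages for decay, rose by 0.73, but its call was lost in 7 of the 12 fits that left out 1 array (adjusted p up to 0.146).

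On the cell surface, 8 of 23 costimulatory and antigen presentation genes rose, with a median of 0.28 and 0 lower. Cd40, the receptor through which T cells activate macrophages and B cells, lay at 8.32, 8.74 and 9.06 in control and at 9.83, 10.14 and 10.59 in estradiol cultures. No control array reached an estradiol array, and the rise was 1.41 ± 0.10 (2.65-fold, adjusted p = 1.44e-05). Cd69, an early activation marker, rose by 1.20, Cd83, a marker of mature antigen-presenting cells, by 1.05, the inhibitory ligand Cd274 by 0.98 and the adhesion molecule Icam1 by 0.91. Cd80, a ligand of Cd28, was gained by pooling, at 0.43 ± 0.06. Over the mean of its probe sets Cd80 differed by 0.16 and did not pass.

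Effector genes of activated macrophages made up a further group, 11 of 22 higher and 0 lower with a median of 0.53. Acod1, which makes the antimicrobial metabolite itaconate, measured 10.01, 10.74 and 11.25 and rose to 11.67, 12.37 and 12.57 on estradiol arrays. The groups were separate, and the rise of 1.56 ± 0.08 was 2.95-fold (adjusted p = 2.89e-06). The cystine transporter Slc7a11 rose 2-fold, the membrane metalloproteinase Mmp14 1.63-fold and the siderophore-binding Lcn2 1.63-fold. Nos2 and Arg1, enzymes that compete for arginine, had differences of 0.02 and -0.08 and did not pass. Arg2, another arginase gene and outside the list, rose by 0.93 and passed in each of the 12 fits that left out 1 array. The list's count of 11 fell to 5 without CD44+ estradiol replicate 3 and to 7 without CD44+ control replicate 2. It was 5 without the replicate number in the model.

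Of 11 genes of inflammasomes and related sensors 4 rose: Mefv, the gene of pyrin (1.27 ± 0.11), Casp4 (0.85), Nod1 (0.52) and Nlrp3 (0.49). Prostaglandin genes that rose were Ptgs2, which encodes the inducible cyclooxygenase, by 1.37 ± 0.11, the prostacyclin receptor Ptgir by 0.49 and the prostaglandin E synthase Ptges by 0.49, 3 of 15 measured. Ptgs2 lay at 9.78, 10.07 and 10.29 on control arrays and at 11.19, 11.44 and 11.60 on estradiol arrays, with no overlap. The call of Ptges was lost in 8 of the 12 fits that left out 1 array (adjusted p up to 0.10). Of 30 genes of the interferon response, 4 rose and 0 fell, with a median of 0.30. They were the interferon gene Ifnb1 (0.79 ± 0.07), the antiviral Rsad2 (0.80) and Oasl1 (0.79), and the factor Irf1 (0.77). Leaving out c-kit+ control replicate 3 raised that count to 10.

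Of 26 immediate early and Maf factors, 6 were higher and 0 lower, with a median of 0.30. Maff, a small Maf protein, rose by 1.15 ± 0.17 and Egr2, a zinc finger factor induced by growth signals, by 0.74 ± 0.13. Fosb spread widely, from 4.72 to 6.81 on control arrays and from 6.04 to 8.44 on estradiol arrays. These overlapped, although all 6 pairs were higher, and Fosb passed at 1.29 ± 0.26 (adjusted p = 0.025). Egr1, Ier3, Nr4a1 and Fosb each lost the call in 5 to 8 of the 12 fits that left out 1 array (adjusted p up to 0.121). The count for the list was 2 without replicate 2 of any group or without CD44+ estradiol replicate 3, and 3 without c-kit+ estradiol replicate 3.

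Other large rises lay outside these lists. Kdm6b, a demethylase of lysine 27 of histone H3, lay at 9.44, 9.93 and 10.34 in control and at 11.02, 11.33 and 11.53 in estradiol cultures. That rise of 1.38 ± 0.12 was the only call among 24 measured histone methylation enzymes. The small GTPase gene Gem rose 2.56-fold. The transcript 2610024D14Rik rose 3.16-fold (1.66 ± 0.23), but its second, dimmer probe set differed by -0.01 and the mean of both by 0.82, which passed. Jag1, a Notch ligand that signals to blood stem cells, rose 1.87-fold and the adhesion molecule Vcam1 1.96-fold, the 2 calls among 25 bone and niche factors. Acp5, the osteoclast acid phosphatase, rose 1.83-fold as 1 of 15 osteoclast genes. Insig1, which holds back cholesterol synthesis, rose 1.81-fold as 1 of 18 cholesterol genes, and Plk2, Btg2 (1.4-fold) and Mdm2 (1.3-fold) rose among 18 p53 targets. The calls of Insig1, Btg2 and Mdm2 were lost in 7, 2 and 9 of the 12 fits that left out 1 array, with adjusted p up to 0.0888, 0.0543 and 0.116. The p53 count was 1 without the replicate number, without CD44+ control replicate 2 or without CD44+ estradiol replicate 3. With probe sets averaged per gene it was 0 by limma.

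**Figure D3:**
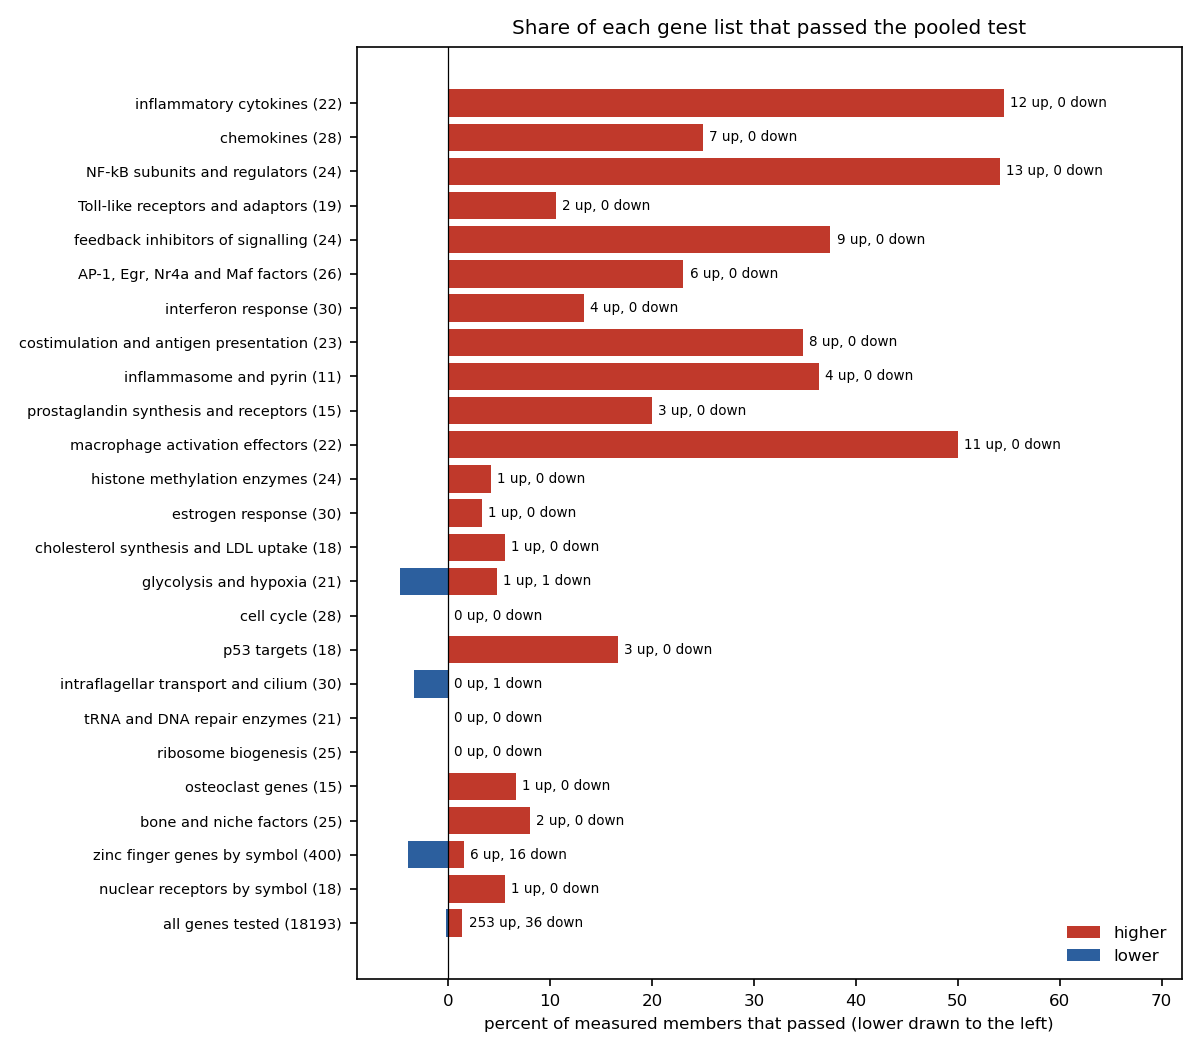
Share of the measured members of each gene list that passed, in percent (higher to the right, lower to the left), with list sizes in parentheses. Inflammatory cytokines (12 of 22), NF-κB genes (13 of 24) and macrophage effectors (11 of 22) have the longest bars, and the bottom bar gives all 18193 genes.

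Pooling found 181 genes that passed in neither fraction in the 4-group fit, 156 higher and 25 lower. That fit called 58 higher and 4 lower in c-kit+ cells, and 92 higher and 9 lower in CD44+ cells (0.319%, 0.022%, 0.506% and 0.0495% of genes tested). The median standard error was 0.085 in the pooled fit and 0.12 in a single fraction. Of the genes called in a fraction, 4 did not pass when pooled (Adamts4, Dmp1, Gpr176 and Tgfb2). Gpr84, a receptor for medium-chain fatty acids, had the smallest p of the gained rises. It lay at 9.21, 9.88 and 9.99 without and 10.28, 10.54 and 10.69 with estradiol, and rose by 0.72 ± 0.09 (adjusted p = 0.0014) without overlap. In c-kit+ cells the same gene differed by 0.72 (adjusted p = 0.069) and in CD44+ cells by 0.71 (adjusted p = 0.054). Among the other gained genes of smallest p were Slc39a4 (0.49), a zinc importer, Nfkb2, Mmp14, Snx18 (0.61), a sorting nexin, Tnf, Acp5, Helz2 (0.71), a nuclear receptor coactivator, and Plk2 (0.76), a polo-like kinase. Over the mean of its probe sets, Plk2 did not pass.

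All 289 genes that passed pooled had the same sign in c-kit+ and CD44+ cells. The pooled test favours genes with like effects in both fractions. Their shared signs, and how few of them differed between fractions, are thus fixed in part by that choice and do not test agreement. A test of the difference between the fractions' effects called 0 of 18193 genes by limma in each setting tried. At an unadjusted p below 0.05 there were 422 (2.32%), of which 2 were among the 253 rises and 0 among the 36 falls. The effects do not thereby count as equal, since the median standard error of that difference was 0.17. The rise was larger in c-kit+ cells for 92 of the 253 genes. The nearest to a difference among rises was Il23a, with 1.08 in c-kit+ and 0.57 in CD44+ cells (unadjusted p = 0.018, adjusted p = 0.98).

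**Figure D4:**
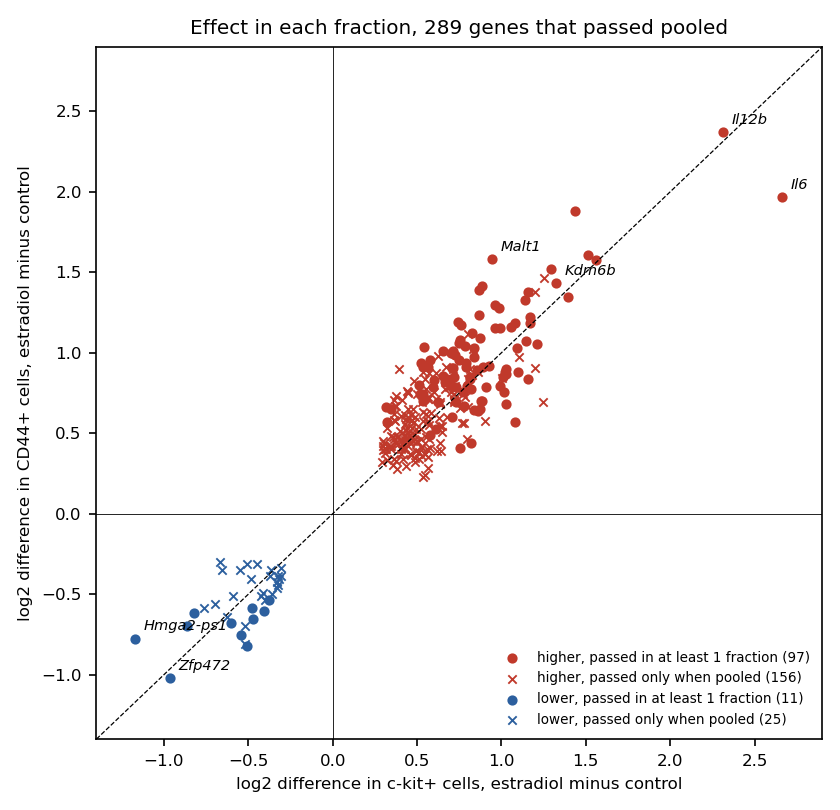
Log2 difference, estradiol minus control, in CD44+ cells (vertical axis) against c-kit+ cells (horizontal axis) for the 289 genes that passed pooled. Dots are genes that passed in at least 1 fraction (97 higher, 11 lower), crosses those that passed only when pooled (156 and 25). No gene has opposite signs, which the pooled choice favours, and the dashed line marks equal effects.

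Zinc finger genes, most of which encode DNA-binding proteins, made up 16 of the 36 falls when counted by symbol. Zfp472 fell furthest, from 6.77, 7.11 and 7.64 on control arrays to 5.80, 6.11 and 6.87 on estradiol arrays. All 6 pairs fell although the groups overlapped, and the difference was -0.99 ± 0.11 (adjusted p = 0.00032). Zfp748 differed by -0.72 ± 0.10, Zscan22 by -0.67 ± 0.10, Zfp623 by -0.65 ± 0.10 and Zfp82 by -0.64 ± 0.09. Every estradiol array lay below every control array for Zscan22 (7.15 to 7.63 in control, 6.61 to 7.04 with estradiol), Zfp623 (7.03 to 7.38, then 6.29 to 6.86) and Zfp82 (5.48 to 6.24, then 4.92 to 5.48, with its nearest arrays equal at this rounding). For Zfp748 they overlapped. Zfp74 (-0.50), Zfp574 (-0.46), Zfp87 (-0.45) and Zfp729b (-0.38) fell as well, and these 9 genes passed in every fit that left out 1 array. With probe sets averaged per gene, Zfp729b and Zfp574 did not pass. The rest of the 16, Zfp955a (-0.67), Zfp39 (-0.66), Zfp157 (-0.55), Zfp799 (-0.47), Zfp84 (-0.43), Zfp961 (-0.38) and Zfp142 (-0.36), each lost the call in 5 to 10 of those 12 fits, with adjusted p up to 0.162.

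A set of zinc finger genes was chosen by symbol (400 genes named Zfp, Zscan, Zbtb and the like) with the falls already known, so its count is a description. The rule leaves out zinc finger genes with other names, among them Egr1, Egr2, Klf7 and Prdm1, which rose, and Rbak, which fell. The set had 16 lower and 6 higher genes (4% and 1.5%) and a median difference of -0.08 beside 0.01 over all genes. Of its 400 values, 267 were below 0 (66.75%), against 44.3% of all genes. The median stayed below 0 in each setting tried, between -0.06 and -0.09. The number of falls ran from 9 without c-kit+ estradiol replicate 2 or CD44+ estradiol replicate 1 to 39 without c-kit+ control replicate 3, and to 45 with array weights. Of the 6 rises, Zfp36 is an RNA-binding protein rather than a DNA-binding one. Zfp263 (0.96 ± 0.20) overlapped between treatments and lost its call in 8 of the 12 fits that left out 1 array (adjusted p up to 0.106). The others were Zfp131 (0.47), Zbtb21 (0.46), Zfp275 (0.41) and Zfp655 (0.34), which passed in 3, 6, 7 and 2 of those fits. Rbak, a KRAB zinc finger gene outside the symbol rule, fell by 0.63, from 6.19 to 7.06 in control down to 5.86 to 6.22, with overlap.

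Several of the zinc finger genes that fell are neighbours in RefSeq when only protein-coding genes are counted, as in all gaps given here. On chromosome 13, Zfp87, Zfp748 and Zfp729b follow each other with 0 protein-coding genes between them. On chromosome 11, 2810021J22Rik (-0.64 ± 0.09) lies next to Zfp39. Zfp84 and Zfp74 on chromosome 7 have 6 genes between them and Zfp74 and Zfp82 have 2. On chromosome 17, Zfp799 and Zfp472 are 3 genes apart, and Zfp472 and Zfp955a 8. Near-identical copies in such clusters can share probes. The probe sets of Zfp142, Zfp729b and Zfp84 are of the type that the maker marks as matching more than 1 transcript, so their values are uncertain. That type also read 12 of the 253 rises, among them Nfkbie, Cd40, Cxcl1, Gadd45b and Zfp263, beside 936 of all 18193 genes. Another 14 rises, among them Socs3, were read by a type marked for probes that may match other sequences (708 of all genes). The same limit holds for these rises. The windows before Zfp74 and Zfp82 are shown because these neighbours fell together, and neither holds an NF-κB consensus match.
Zfp74 (chr7:29954066-29954315, minus strand): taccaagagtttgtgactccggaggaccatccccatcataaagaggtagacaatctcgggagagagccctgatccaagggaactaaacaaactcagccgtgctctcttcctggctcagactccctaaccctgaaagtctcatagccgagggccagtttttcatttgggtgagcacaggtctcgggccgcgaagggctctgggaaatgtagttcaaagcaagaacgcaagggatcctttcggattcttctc
Zfp82 (chr7:30072824-30073073, minus strand): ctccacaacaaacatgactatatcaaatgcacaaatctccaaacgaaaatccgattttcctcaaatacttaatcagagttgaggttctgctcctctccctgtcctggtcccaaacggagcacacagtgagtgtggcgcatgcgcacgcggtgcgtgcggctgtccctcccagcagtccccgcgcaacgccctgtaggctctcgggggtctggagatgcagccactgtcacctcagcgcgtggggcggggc
Among falling zinc finger genes by symbol, 1 of 12 windows (8.33%) held such a match, beside 8.56% of all windows.

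**Figure D5:**
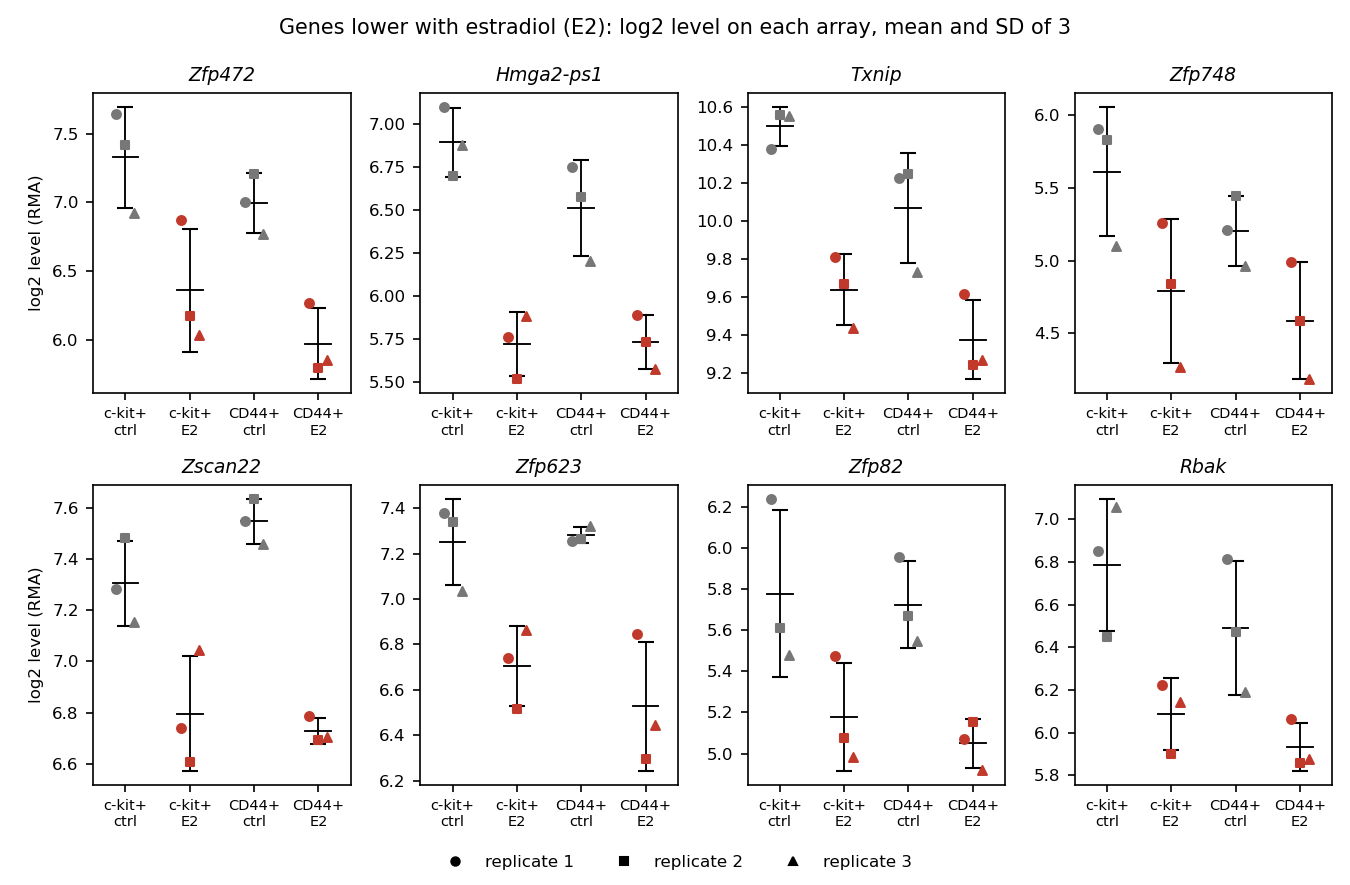
Log2 level on each of 12 arrays for 8 genes lower with estradiol, by fraction and treatment (grey control, red estradiol), with symbols for the replicate number and bars for the mean and SD of 3 arrays. Falls run from -0.99 for Zfp472 to -0.63 for Rbak, and the 6 estradiol arrays lie below the 6 control arrays for Hmga2-ps1, Zscan22, Zfp623 and Zfp82.

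Outside the zinc finger genes, Hmga2-ps1 and Txnip fell most. Hmga2-ps1, a pseudogene of the chromatin protein Hmga2, lay at 6.21, 6.73 and 7.10 in control and at 5.52, 5.75 and 5.89 in estradiol cultures. It fell by 0.97 on the log2 scale (SE 0.11, adjusted p = 0.00043) without overlap, and its probes could also read its parent gene. Txnip, which binds thioredoxin and limits glucose uptake, went from 9.74, 10.32 and 10.56 to 9.24, 9.53 and 9.81. That is a difference of -0.78 ± 0.10 (adjusted p = 0.00094) with all 6 pairs lower. Its relative Arrdc4 rose by 0.54 ± 0.10, though the call was lost in 5 of the 12 fits that left out 1 array (adjusted p up to 0.0654). These were the 2 calls among 21 glycolysis and hypoxia genes.

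Further falls that held without each array in turn were Lpar6 (-0.61), a receptor for lysophosphatidic acid, AI467606 (-0.56), Ttc30a1 (-0.53), an intraflagellar transport gene, Thap2 (-0.40), a THAP-domain gene, and Lcmt2 (-0.38), a tRNA-modifying enzyme. Ttc30a1 was the only call among 30 cilium genes. Haspin (-0.50), a mitotic histone H3 kinase, Fancf (-0.47) and Etaa1 (-0.45), which act in DNA damage responses, Thbd (-0.41), the gene of thrombomodulin, Nanp (-0.38), which acts in sialic acid synthesis, and Fbxo5 (-0.32), an inhibitor of the anaphase-promoting complex, lost the call in 6 to 10 of those fits (adjusted p up to 0.147). Of 28 measured cell cycle genes 0 passed by limma and 2 had an unadjusted p below 0.05, with differences from -0.25 to 0.12. A list of tRNA and DNA repair enzymes held none of Lcmt2, Fancf and Etaa1. Among its 21 measured genes 0 passed by limma and 1 had an unadjusted p below 0.05.

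Estrogen receptors and known estrogen targets were read as well. Esr1 lay between 7.50 and 7.87 on control and between 7.50 and 8.24 on estradiol arrays, a difference of 0.01 (adjusted p = 0.99). Pgr, the classical target gene of estrogen in reproductive tissue, was between 3.69 and 3.96 and between 3.74 and 4.15, in the range of the Y-linked genes. Of 30 genes of an estrogen response list, Sgk1 rose by 0.47 ± 0.07 and 0 fell, with a median of 0.01, equal at this rounding to that of all genes. Sgk1, a kinase that glucocorticoids also induce, overlapped between treatments.

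Agreement between probe sets was checked where a gene had others. The 253 rises had 240 further probe sets in 130 genes, of which 208 moved the same way, 75 passed in that direction and 0 passed in the opposite one. The falls had 28 in 16 genes, with 23 the same way and 2 that passed. Of all 34945 probe sets in that fit, 362 were higher and 70 lower. The further probe sets read the same RNA samples that chose the genes, so they are no independent test. Averaging a gene's probe sets moved some calls by over 1.5 times: Jag1 to 0.52, Vcam1 to 0.50, Lif to 0.39, Nfkb2 to 0.34, Sdc1 to 0.43, Zfp39 to -0.41, Zfp82 to -0.36, Thap2 to -0.26 and Etaa1 to -0.25, all of which still passed. Arrdc4 (0.33), Btg2 (0.43), Mdm2 (0.21), Zfp157 (-0.31), Fancf (-0.17), Zfp961 (-0.15) and Zfp142 (-0.10) did not pass by that measure.

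Among the lists of cell type markers, 1 gene passed. The summed level of 10 B and plasma cell markers was 53.99 to 54.96 in c-kit+ control and 55.58 to 56.01 in c-kit+ estradiol arrays, and 55.93 to 57.67 and 58.41 to 60.82 in CD44+ cells. Only Sdc1 (0.65 ± 0.12) passed, in 4 of the 12 fits that left out 1 array (adjusted p up to 0.0748), while the defining B cell genes Cd79a, Ms4a1 and Pax5 had mean levels of 4.82, 3.62 and 4.69. Of 16 mesenchymal stromal and osteoblast markers, 0 passed by limma, but 7 had an unadjusted p below 0.05 beside 1760 of all 18193 genes, each with a positive difference: Pdgfrb (0.78 ± 0.25), Col3a1 (0.48), Postn (0.42), Cxcl12 (0.41), Col1a2 (0.37), Col5a1 (0.27) and Lepr (0.17). Their list's summed level was 82.61 to 86.19 in c-kit+ control and 81.82 to 89.94 in c-kit+ estradiol arrays, and 99.54 to 110.2 and 102 to 112.3 in CD44+ cells. The part of either cell type in the rises was not tested. The 3′ to 5′ signal of Gapdh, a measure of RNA quality, differed between treatments by -0.64 to 0.82 over the 6 pairs, with 3 values on each side of 0. That of Actb differed more widely, by -1.39 to 1.14. On single arrays the Gapdh value ran from 2.83 (CD44+ control replicate 3) to 6.17 (c-kit+ estradiol replicate 1).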

How the data were processed

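Total RNA was labelled with biotin in a two-cycle protocol and hybridized to Affymetrix mouse arrays, per the labels' protocols. The authors deposited log2 values from RMA, per the submitters' processing notes, in a version not given in the sources used here. They were used without a filter or renormalization, and array medians lay between 4.75 and 4.84. Precision is limited by the number of arrays.

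Of 45101 probe sets, 64 were controls, 34945 named 1 gene in the platform annotation, 932 named several and 9160 were unnamed. The probe set of highest mean stood for each of 18193 genes. limma 3.58.1 in R 4.3.3 fitted treatment, fraction and replicate number (7 residual degrees of freedom). A fit with a mean per group and the replicate number (6) gave each fraction's effect and their difference. Both used empirical Bayes and Benjamini-Hochberg adjustment at 0.05. Only the calls of the pooled fit were tested on simulated data. Python 3.11.15, pandas 2.3.3 and matplotlib 3.10.9 made tables and figures.

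The members, gene lists and tests were chosen with earlier results of these data known. Named genes are the 12 largest rises and falls that held in all 6 pairs, the 10 gained rises and 10 gained falls of smallest p, up to 4 members of smallest p per list and the receptor and label genes; others were named after their values were seen. Promoters came from RefSeq (GRCm38.p6), used for names and gene order too.

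Replicate numbers entered as an additive factor because the comparison was defined so. Deviations from group means of arrays with equal numbers correlated at 0.345, 0.092 and 0.253 between control and estradiol in c-kit+ cells and at 0.303, 0.368 and 0.322 in CD44+ cells. The fit without the block stands beside the results it changes. Alternatives were other blocks, probe set choices, normalizations, moderation, array weights, a Gapdh covariate, thresholds and leaving out each array.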

Additional observations from a re-analysis of the deposited data

Results flagged for a closer look

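Each result here was singled out because 1 of the 6 differences of estradiol and control arrays with the same fraction and number lay far from the others. Chance alone does this for about 1 group in 20. The rule was run on every named gene that was followed through the refits, so several genes would be flagged by chance alone. In c-kit+ replicate 1, Lif had a difference of 0.488 (nearest other 0.778) and Ccl2 one of -0.0764 (nearest 0.381). In c-kit+ replicate 2, Nanp had -0.0365 (nearest -0.416) and Traf1 had 1.25 (nearest 0.956). In c-kit+ replicate 3, Tnip1 had 1.00 (nearest 0.708), Oasl1 had 1.34 (nearest 0.837) and Fancf had 0.15 (nearest -0.404). In CD44+ replicate 1, Ptgs2 had 1.06 (nearest 1.35). Besides the genes tested, probe sets with no gene or several in the annotation also passed, 71 higher and 15 lower of 10092.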

How the results depend on the processing

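Of 111 named genes that passed and were followed through the refits, 70 kept the call under each of up to 22. The refits were other models, normalizations, probe set choices and arrays left out, and stricter thresholds are not counted here. The other 41 lost the call under at least 1, and 0 changed sign. Arg2, Zfp131, Zfp275, Zfp655 and Zbtb21 were not followed through every refit. Leaving out each array in turn gave 166 to 594 higher and 19 to 190 lower genes. Without the replicate block 21 genes were lower (177 higher), and with the block set within each fraction 39 were lower and 259 higher. Tested singly, 362 of 34945 probe sets were higher and 70 lower. Quantile normalization over all arrays gave 226 higher and 62 lower genes, and array weights 445 higher and 144 lower. At an adjusted p below 0.01 there were 141 higher and 15 lower, below 0.1 65 lower, and with at least a 1.5-fold change 146 and 12. The cause of these shifts was not tested. The difference of effects gave 0 calls in each setting. Equal replicate numbers correlated at 0.175, 0.122 and -0.208 between the control arrays of the fractions, and at 0.447, 0.192 and 0.312 between their estradiol arrays. Between c-kit+ estradiol and CD44+ control arrays they correlated at 0.31, 0.142 and 0.213, and between c-kit+ control and CD44+ estradiol arrays at 0.263, -0.059 and 0.158. Equal numbers thus went together in most but not all comparisons across fractions, and the labels do not say what they share.

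Esr1, at 0.01, turned to -0.040 with quantile normalization, -0.0019 with centring and -0.061 with array weights, and ran from -0.068 to 0.058 without single arrays; Esr2, at 0.05, turned to -0.042 with array weights and ran from -0.029 to 0.126 without single arrays; Gper1, at -0.04, to 0.055 over the mean of its probe sets. None of these passed in any setting. The 3 arrays a group limit what a single fraction can show.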
